A study of Mus musculus with 31 samples.

Results

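The comparison described here set 3 Glud1 Tg mice against 3 age-matched wt mice, all male, of the C57BL/6 strain and 14.5 months old. They are 6 of the 31 mice of an age series that also held both genotypes at 10 days and at 4.5, 9 and 20 months. Glud1 encodes glutamate dehydrogenase 1, and the Tg mice carry an extra Glud1 transgene that is over-expressed in neurons of the central nervous system, whereas the wt mice carry none. Each array held RNA of the hippocampi of 1 mouse on an Affymetrix Mouse Genome array. The comparison started from all non-control probe sets, of which 26877 passed a signal filter and were tested. How the genes named below were chosen is given with the processing.

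Glutamate dehydrogenase 1 is a mitochondrial enzyme that interconverts glutamate and 2-oxoglutarate, so it links the main excitatory transmitter of the brain to the tricarboxylic acid cycle. The hippocampus, a structure needed for forming memories, depends on glutamate at nearly all of its principal synapses, which run through the dentate granule cells and the CA3 and CA1 pyramidal cells. It is also rich in glucocorticoid receptors, which on binding corticosterone enter the nucleus and switch on a set of target genes such as Fkbp5, Sgk1 and Tsc22d3.

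Markers of the hippocampal cell layers were present. All 15 measured markers of dentate granule cells, all 9 of CA1 pyramidal cells and all 15 of CA2 and CA3 pyramidal cells were above the array median in at least 1 genotype. So were 11787 of all 12844 genes tested, so the criterion shows detection and does not tell hippocampus from neighbouring tissue. The Glud1 signal itself did not separate the genotypes: on the log2 scale it was 12.28, 12.23 and 12.29 in Tg mice and 12.29, 12.28 and 12.36 in wt mice, a difference of -0.04 ± 0.07 (SE). The transgene, by the study's description, lacks the untranslated end of the transcript that both Glud1 probe sets read, so Glud1 gives no check of the genotype labels. The array measures overlapped between genotypes: the median signal was 107 to 111 in Tg mice and 105 to 114 in wt mice, and the lowest correlation between mice of 1 genotype was 0.948 in Tg mice and 0.950 in wt mice.

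One mouse stood apart within its group. The choroid plexus, the secretory tissue that lines the brain ventricles and lies against the hippocampus, has its own marker genes, and their mean log2 signal was 9.86, 10.13 and 7.68 in Tg mice 1 to 3, against 9.59, 9.52 and 9.82 in wt mice. Of the 22 measured choroid plexus markers, 20 were lowest in Tg mouse 3, with Kcnj13, a potassium channel of this epithelium, at 11.16, 11.17 and 7.81 in Tg mice and 10.66, 10.56 and 11.00 in wt mice. Ttr, the transthyretin gene and the most abundant choroid plexus transcript, was an exception at 14.97, 14.89 and 14.91 in Tg mice and 14.94, 14.94 and 14.97 in wt mice, at the top of the scale on every array. The choroid plexus mean varied as widely at 20 months, from 7.27 to 9.74 in Tg mice and from 7.37 to 9.86 in wt mice. Not every group was so wide, with wt mice at 9 months between 8.38 and 8.84.

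Markers of the leptomeninges, the fibroblast-rich membranes around the brain, followed the same order of mice. Their mean log2 signal was 9.41, 9.43 and 7.72 in Tg mice and 9.34, 9.13 and 9.17 in wt mice. Tg mouse 3 was also the lowest of the 6 for the lists of extracellular matrix, endothelial and interferon-response genes, which those membranes and vessels express in part, while astrocyte markers stayed between 11.54 and 11.62 in Tg mice and between 11.58 and 11.60 in wt mice. Results on these lists are therefore given with and without Tg mouse 3. In whole hippocampus, a smaller share of a cell type and less RNA per cell cannot be told apart.

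**Figure D1:**
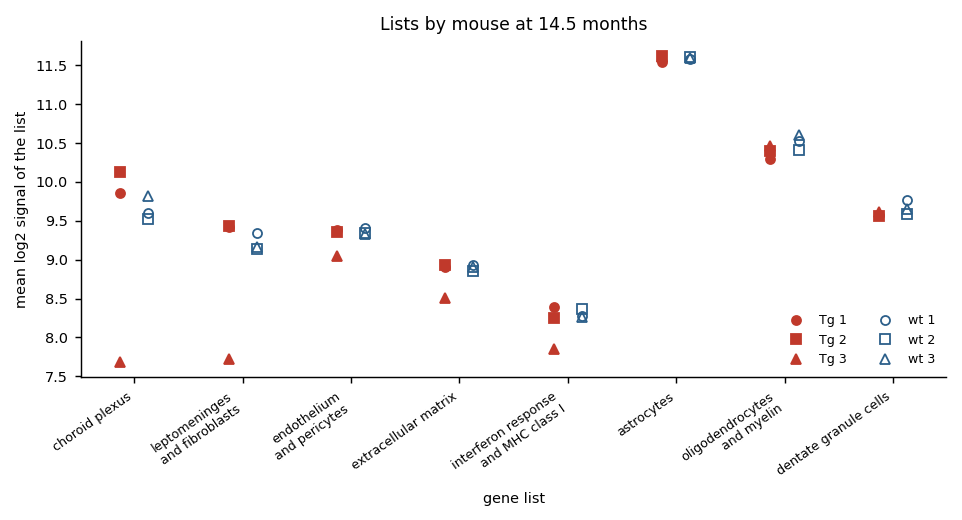
Mean log2 signal (vertical axis) of 8 gene lists in each mouse at 14.5 months, Tg mice as filled symbols on the left of each list and wt mice as open symbols on the right; the symbol shape gives the mouse number. Tg mouse 3 lies at 7.68 for choroid plexus and 7.72 for leptomeninges, below the other 5 mice, whereas its astrocyte, myelin and dentate lists lie among the others.

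No probe set separated Tg from wt mice at this age after correction. Of 26877 probe sets tested with limma across all 31 arrays, 0 passed an adjusted p of 0.05 (0% called in either direction). An unadjusted p under 0.05 was found for 263 (0.979%), of which 135 had the higher mean in Tg mice and 128 the lower. Evenly spread p-values would put 1344 under that threshold. This fit pools the spread between mice over all ages, so the low share is no measure of likeness at 14.5 months. When the 6 arrays were fitted alone, 0 passed and 1255 (4.67%) had an unadjusted p under 0.05, with a smallest adjusted p of 0.349. The 14.5-month mice were the most alike within genotypes of all ages, with a median standard deviation on the log2 scale of 0.190 at 10 days, 0.186 at 4.5 months, 0.245 at 9 months, 0.126 at 14.5 months and 0.170 at 20 months.

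Among the alternative settings, 3 probe sets passed when limma weighted the arrays by their quality, all with lower values in Tg mice. Cox7a2l, which encodes a factor that assembles respiratory supercomplexes, read 11.45, 11.53 and 11.47 in Tg mice and 11.77, 11.85 and 11.78 in wt mice, and its weighted difference was -0.33 ± 0.06 (limma adjusted p = 0.019). Septin11, a septin of dendritic spines, read 8.46, 8.58 and 8.55 in Tg mice and 8.92, 9.16 and 9.23 in wt mice. Tor1aip2, a partner of torsin in the endoplasmic reticulum, read 10.02, 9.88 and 9.93 in Tg mice and 10.33, 10.32 and 10.28 in wt mice. The groups of the 3 probe sets did not overlap, and without weights their differences were -0.32, -0.57 and -0.36, with adjusted p-values of 1. Other probe sets of these genes gave smaller or less certain differences: 2 of Cox7a2l gave 0.00 ± 0.09 and 0.02 ± 0.07, those of Septin11 ran from -0.47 ± 0.35 to -0.03 ± 0.13, and those of Tor1aip2 ran from -0.13 ± 0.08 to -0.06 ± 0.26.

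The width of the 95% intervals bounds what remains. In the fit of all 31 arrays, among the 12412 probe sets with a mean signal at least 4 times the array median, the 95% interval of the Tg minus wt difference lay wholly within 1.3-fold for 78.9% and within 2-fold for 99.4%. Over all probe sets tested, dim ones included, those shares were 40.6% and 85.6%. That fit takes its spread from all ages, and in the fit of the 6 arrays alone 91.3% of the bright probe sets and 58.7% of all lay within 1.3-fold. The median absolute log2 fold change over 12844 genes was 0.07, and the median log2 fold change was -0.01. Intervals were wider for dim probe sets, and differences inside an interval were not resolved with 3 mice a group.

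**Figure D2:**
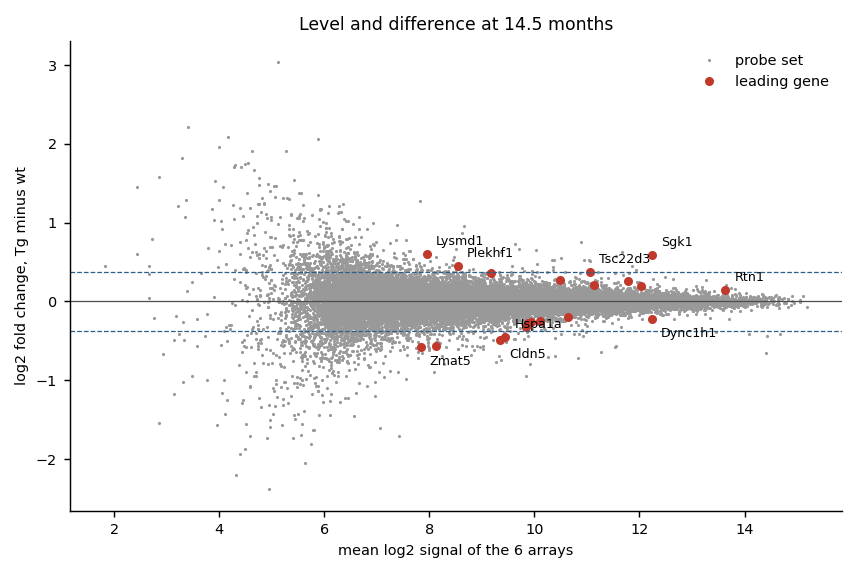
Each point is 1 probe set, with the mean log2 signal of the 6 arrays on the horizontal axis and the log2 fold change of Tg minus wt on the vertical axis; dashed lines mark 1.3-fold. The scatter narrows with signal, and the 20 leading genes (red) lie at the edge of the cloud, with Sgk1 at 0.59 the farthest above 0 among bright genes that separate the genotypes.

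Only 24 of 7410 genes with a mean at least 4 times the array median differed by 1.3-fold or more, 5 with the higher mean in Tg mice and 19 with the lower, and 10 of the 24 changed sign when Tg mouse 3 was left out. Those that changed sign included the choroid plexus and leptomeningeal genes Folr1, Kcnj13, Igf2, Kl and Slc6a20a. Folr1, a folate receptor of the choroid plexus, had a difference of -0.71 ± 1.38 with all mice and 0.28 without Tg mouse 3. The largest difference among these genes, chosen after its values were seen, was that of Erdr1, a gene of the pseudoautosomal region, at 11.26, 11.14 and 11.37 in Tg mice and 11.14, 10.29 and 10.06 in wt mice, a difference of 0.76 ± 0.35. Its groups overlapped, since wt mouse 1 was level with the lowest Tg mouse. Among the 24, only Sgk1 had all 3 Tg values above all 3 wt values, and Cldn5, Hspa1a, Sox10 and Zdhhc5 had all 3 below.

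The 20 genes that led the comparison, 10 in each direction, were those above the array median whose groups did not overlap and whose unadjusted p was smallest. None was called, with an adjusted p of 1 for each. For context, 4.43% of all genes had all Tg values above all wt values and 5.91% had all Tg values below, so lack of overlap alone was common.

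**Figure D3:**
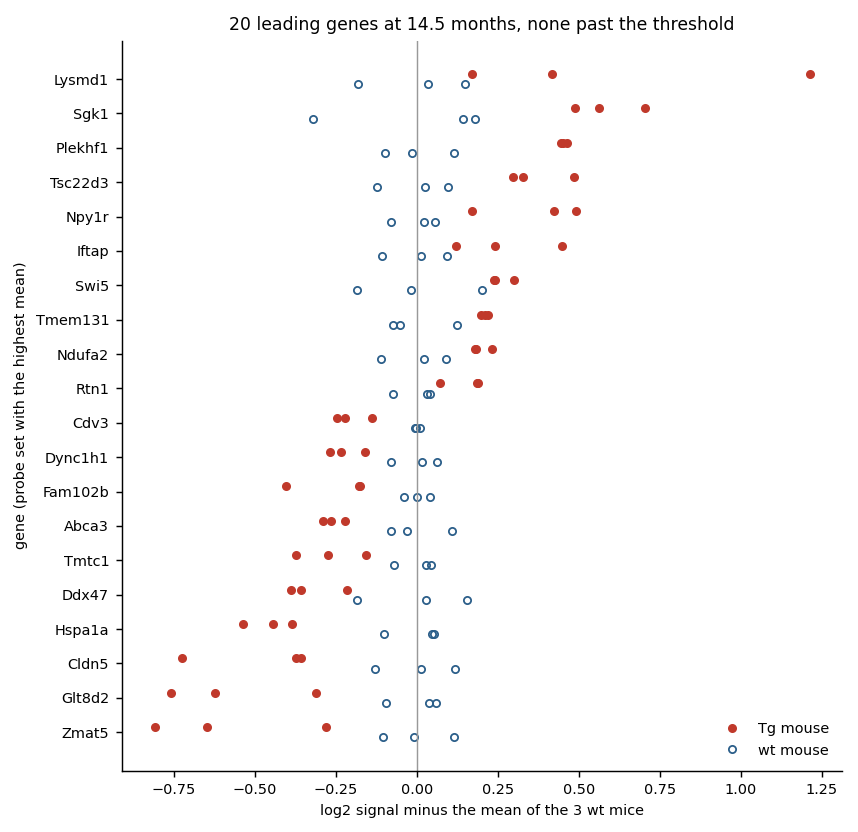
Log2 signal of each mouse minus the mean of the 3 wt mice (horizontal axis) for the 20 leading genes, with Tg mice as filled points in the upper row and wt mice as open points in the lower row of each gene. The groups of each gene do not overlap, by the rule that chose them; Plekhf1 has its 3 Tg mice within 8.76 to 8.78, and Lysmd1 has Tg mouse 3 at 8.87, far above the other 5 mice.

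The leading gene on the higher side was Tsc22d3 (chrX:140539528-140600522 on GRCm38.p6), which encodes the glucocorticoid-induced leucine zipper, an anti-inflammatory transcriptional regulator. Its log2 signal was 11.16, 11.20 and 11.35 in Tg mice and 10.75, 10.96 and 10.89 in wt mice. The gap between the lowest Tg and the highest wt mouse was about as wide as the spread within wt mice, and the difference was 0.37 ± 0.11 (SE, unadjusted p = 0.0015). A further probe set of Tsc22d3 read 10.52, 10.44 and 10.82 in Tg mice and 9.89, 10.27 and 10.04 in wt mice, a difference of 0.52 ± 0.14, and a dimmer one gave 0.08 ± 0.21.

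Sgk1 (chr10:21882184-21999903), the serum- and glucocorticoid-regulated kinase that controls ion channels and transporters, also separated the genotypes. It read 12.65, 12.43 and 12.51 in Tg mice and 11.63, 12.09 and 12.13 in wt mice. Its difference of 0.59 ± 0.19, or 1.5-fold, was smaller at 0.42 ± 0.20 without wt mouse 1, the lowest of the 6 (unadjusted p = 0.0042 with it and 0.040 without). In the same fit Sgk1 differed by 0.29 at 4.5 months, 0.22 at 9 months and 0.20 at 20 months, none of them called, whereas Tsc22d3 differed by 0.34, 0.13 and 0.10 at those ages.

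The other leading genes on the higher side had more varied roles. Plekhf1, an endosomal and lysosomal protein, had tightly grouped Tg values of 8.78, 8.76 and 8.77, against 8.22, 8.30 and 8.43 in wt mice, a difference of 0.45 ± 0.16. Npy1r, the Y1 receptor for neuropeptide Y, read 9.41, 9.16 and 9.48 in Tg mice and 9.05, 9.01 and 8.91 in wt mice, and Ndufa2, an accessory subunit of respiratory complex I, read 12.11, 12.16 and 12.10 in Tg mice and 11.95, 12.02 and 11.82 in wt mice. Their differences were 0.36 ± 0.13 and 0.20 ± 0.07. Swi5, a partner in recombinational DNA repair, differed by 0.26 ± 0.08, Tmem131 by 0.21 ± 0.07, Iftap by 0.27 ± 0.09 and Rtn1, a reticulon of the neuronal endoplasmic reticulum, by 0.15 ± 0.06. Lysmd1 differed by 0.60 ± 0.23 with all mice but by 0.29 ± 0.22 without Tg mouse 3, which was the highest by far at 8.87 against 8.08 and 7.83 in the other Tg mice.

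On the lower side the smallest p belonged to Cldn5 (chr16:18776847-18778262), the claudin that seals the tight junctions of the blood-brain barrier. It read 9.24, 9.22 and 8.87 in Tg mice and 9.71, 9.46 and 9.60 in wt mice, a difference of -0.49 ± 0.12 (unadjusted p = 0.00054). Tg mouse 3, low in vascular and leptomeningeal markers, was the lowest of the 6, and without it the difference was -0.37 ± 0.13. Cldn5 differed by -0.38, -0.25 and -0.12 at 4.5, 9 and 20 months in the same fit, none called.

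Hspa1a (chr17:34969359-34972156), the stress-inducible heat shock protein of the Hsp70 family, separated the genotypes in a narrow band. It read 9.23, 9.29 and 9.14 in Tg mice and 9.72, 9.73 and 9.58 in wt mice, a difference of -0.46 ± 0.16. Its near-identical neighbour Hspa1b may share this probe set. At the other adult ages the difference was 0.30 at 4.5 months, -0.33 at 9 months and 0.11 at 20 months, with both signs among these ages.

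The remaining 8 genes on the lower side had varied roles. Dync1h1, the heavy chain of cytoplasmic dynein that carries cargo back along axons, read 12.07, 12.18 and 12.11 in Tg mice and 12.36, 12.26 and 12.40 in wt mice, a difference of -0.22 ± 0.07, and a second, dim probe set gave 0.05 ± 0.23. Zmat5, a component of the minor spliceosome, differed by -0.58 ± 0.20, Glt8d2 by -0.57 ± 0.20, Ddx47, an RNA helicase, by -0.32 ± 0.11, Tmtc1 by -0.27 ± 0.10, Abca3, a lipid transporter, by -0.26 ± 0.09, Fam102b by -0.25 ± 0.09 and Cdv3 by -0.20 ± 0.07. Further probe sets of Glt8d2 and Fam102b, of nearly the same signal, showed no such gap (-0.01 ± 0.21 and -0.00 ± 0.13), and 3 dimmer probe sets of Cdv3 lay between -0.00 and 0.15.

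Of 51 gene lists, the one with the largest positive median was that of glucocorticoid receptors and response genes. Of its 26 measured members, 0 were called, but 10 had all 3 Tg values above all 3 wt values and 0 had all 3 below, against 4.43% and 5.91% of all genes. Its median log2 fold change was 0.14, against -0.01 over all genes, and 22 members had a positive difference. The mean over the 26 genes was 10.12, 10.07 and 10.17 in Tg mice and 9.90, 9.96 and 9.99 in wt mice, so the list mean did not overlap. Its exact permutation p was 0.1, the smallest that 3 against 3 mice allow. The list mean rests on the same genes and mice as the counts above, so it is not separate evidence.

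The members without overlap spanned several roles. Besides Sgk1 and Tsc22d3, Mertk (chr2:128698915-128803162), a receptor kinase with which astrocytes and microglia engulf debris, read 10.18, 10.22 and 10.34 in Tg mice and 9.88, 9.99 and 9.94 in wt mice, a difference of 0.31 ± 0.13 (unadjusted p = 0.018). Fkbp5, the co-chaperone that restrains the glucocorticoid receptor and is itself induced by it, read 10.44, 10.46 and 10.45 in Tg mice and 10.34, 10.16 and 10.31 in wt mice, a difference of 0.18 ± 0.11. Klf15, a metabolic transcription factor, read 9.35, 9.19 and 9.32 in Tg mice and 8.85, 9.09 and 9.15 in wt mice.

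The zinc finger repressor Zbtb16 read 10.42, 10.47 and 10.60 in Tg mice and 10.30, 10.23 and 10.38 in wt mice. Mt1, a metal-binding metallothionein, read 13.74, 13.69 and 13.79 in Tg mice and 13.63, 13.50 and 13.48 in wt mice. For both, the lowest Tg mouse lay close above the highest wt mouse. Cdkn1a, a cell cycle inhibitor, Arrdc2 and Hif3a completed the 10 with differences of 0.35 ± 0.25, 0.53 ± 0.39 and 0.32 ± 0.50, all from dim probe sets.

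Other members of the list did not separate the genotypes. The receptor genes themselves, Nr3c1 for the glucocorticoid receptor and Nr3c2 for the mineralocorticoid receptor, differed by -0.04 ± 0.09 and -0.14 ± 0.13. The Nr3c2 difference was the lowest of the list. Per1, Dusp1, Nfkbia, Klf9 and Errfi1, which respond quickly to glucocorticoids in many tissues, differed by 0.06 ± 0.17, 0.03 ± 0.25, 0.03 ± 0.11, 0.04 ± 0.08 and 0.04 ± 0.12. All 5 of these had overlapping groups.

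The median of the list stayed positive when mice were left out, but its rank among the lists did not hold. Without Tg mouse 3, 11 members lay wholly above wt and 0 below, against 9.76% and 12.3% of all genes for 2 against 3 mice, and the median was 0.11, below those of the choroid plexus (0.34), leptomeninges (0.20), ependyma (0.15), striatum (0.14) and thalamus (0.13) lists. Over the 6 ways of leaving out a mouse the median stayed between 0.11 and 0.17. At the other ages, in different mice, the list median was -0.04 at 10 days, 0.11 at 4.5 months, 0.10 at 9 months and -0.00 at 20 months, and the group means of the list were 9.77 in Tg and 9.77 in wt mice at 9 months and 10.34 in Tg and 10.41 in wt mice at 20 months. The list mean overlapped between genotypes at every age but 14.5 months.

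**Figure D4:**
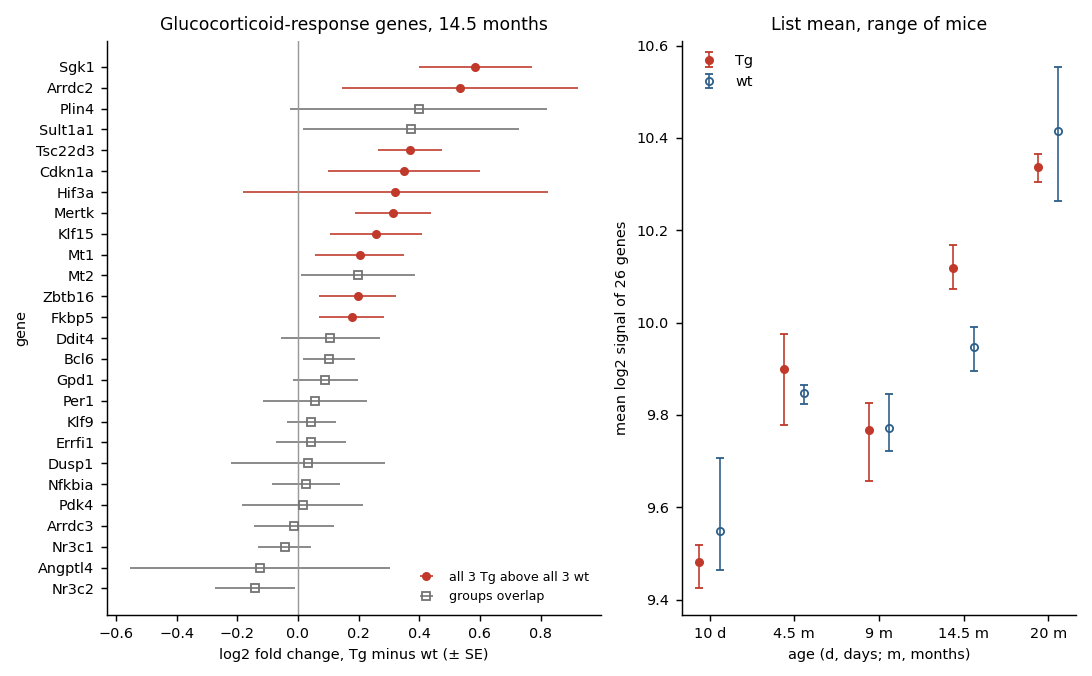
Left, log2 fold change of Tg minus wt with its standard error for 26 glucocorticoid-response genes at 14.5 months; filled points mark the 10 genes whose 3 Tg values all lie above the 3 wt values. Right, mean log2 signal of the 26 genes by age (Tg filled, wt open, lines from the lowest to the highest mouse), where the lines of Tg and wt do not overlap at 14.5 months.

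The glucocorticoid receptor binds DNA as a pair at near-palindromic sites, so the promoters of the list were searched for the pattern GNACANNNTGTNC on both strands, in windows of 250 bases before to 50 after each start site annotated by RefSeq (GRCm38.p6). Windows were found for 22 of the 26 genes, 35 windows in all. The pattern occurred in 2 of the 35, those of Mt1 and of 1 of the Sgk1 start sites, both genes without overlap, and in 0.475% of all 32851 promoter windows. The single receptor site AGAACA, which overlaps the full pattern in part, was in 17.1% of the list's windows and 19.0% of all windows. The windows with a full match are shown with the matching bases in capitals, Sgk1 at chr10:21993640-21993939 and Mt1 at chr8:94178839-94179138, both on the plus strand.
Sgk1: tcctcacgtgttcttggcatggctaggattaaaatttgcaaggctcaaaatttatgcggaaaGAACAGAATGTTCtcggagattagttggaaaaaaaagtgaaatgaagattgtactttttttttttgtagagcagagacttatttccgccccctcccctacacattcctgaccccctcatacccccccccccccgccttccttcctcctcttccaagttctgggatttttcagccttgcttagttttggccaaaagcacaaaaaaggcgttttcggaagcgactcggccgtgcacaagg
Mt1: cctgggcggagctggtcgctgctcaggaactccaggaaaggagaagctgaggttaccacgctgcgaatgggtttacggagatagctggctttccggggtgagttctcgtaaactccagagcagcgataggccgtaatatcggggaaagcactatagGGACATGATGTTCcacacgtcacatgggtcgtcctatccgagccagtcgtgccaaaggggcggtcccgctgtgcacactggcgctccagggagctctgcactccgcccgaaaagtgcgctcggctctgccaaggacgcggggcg
The match begins 188 bases before the start site in Sgk1 and 94 bases before it in Mt1. It is a match of letters only, and the 20 other genes with a window had none within these 300 bases.

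Most genes closest to the transgene's action were nearly level. Of 15 measured genes of glutamate and GABA metabolism, 0 were called, and the differences ran from -0.07 for Asns to 0.13 for Aldh4a1. Only Glul, the astrocytic glutamine synthetase, had Tg values that did not overlap wt, with a difference of 0.11. Of the 28 glutamate receptor and auxiliary subunit genes, 0 were called, 2 lay wholly above wt and 0 below, with a median of -0.01. The differences ran from -0.16 for Grm8 to 0.62 for Cacng8, an AMPA receptor auxiliary subunit. The AMPA receptor subunit Gria1 read 13.37, 13.34 and 13.30 in Tg mice and 13.35, 13.17 and 13.36 in wt mice. Among 16 glutamate transporters the median was -0.02, with 0 called, 3 wholly above wt and 0 below (18.8% above, against 4.43% of all genes). The 3 were Slc1a6, a neuronal transporter, with a difference of 0.39 ± 0.21, and the mitochondrial aspartate-glutamate carriers Slc25a12 and Slc25a13, with 0.05 ± 0.06 and 0.39 ± 0.86. Slc1a6 read 7.68, 8.10 and 8.04 in Tg mice and 7.52, 7.61 and 7.51 in wt mice. The astrocytic transporter Slc1a2 read 14.72, 14.72 and 14.79 in Tg mice and 14.73, 14.74 and 14.81 in wt mice.

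Synaptic genes were close to level as well. In 39 genes of synaptic vesicles and release, 1 lay wholly above and 3 wholly below wt, with a median of -0.03, and the 95% intervals of 32 were within 1.3-fold. The postsynaptic density list had 0 above and 3 below of 21, against 4.43% above and 5.91% below among all genes. Among those 3 was Camk2a, the kinase that holds the strength of potentiated synapses, at 13.24, 13.18 and 13.28 in Tg mice and 13.43, 13.33 and 13.57 in wt mice, a difference of -0.21 ± 0.15. A second bright probe set of Camk2a gave -0.13 ± 0.14, also without overlap, and 3 others ran from -0.08 to 0.12. The 13 GABA receptor genes had a median of 0.00.

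Ion channels had members without overlap on both sides. Of 45 potassium channel genes, 4 lay above and 6 below, against 4.43% and 5.91% of all genes, with a median of 0.00. Kcnn2, a calcium-activated channel that shapes the afterhyperpolarization of neurons, read 10.06, 9.95 and 10.14 in Tg mice and 9.79, 9.85 and 9.81 in wt mice, a difference of 0.24 ± 0.10. Kcnab1, a beta subunit of A-type channels, read 11.58, 11.56 and 11.63 in Tg mice and 11.74, 11.72 and 11.82 in wt mice, a difference of -0.17 ± 0.08, and the modifier subunit Kcns2 differed by -0.18 ± 0.08. Cacna1e, the R-type calcium channel, differed by -0.18 ± 0.08 and Slc8a1, a sodium-calcium exchanger, by 0.28 ± 0.13.

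Mitochondrial genes were measured with narrow errors and lay close to 0. Of 71 oxidative phosphorylation genes, 7 lay wholly above wt and 1 below (9.86% and 1.41%, against 4.43% and 5.91% of all genes), with a median of 0.02 and 69 intervals within 1.3-fold. Complex I subunits led them: besides Ndufa2, Ndufa10 read 12.76, 12.67 and 12.73 in Tg mice and 12.63, 12.58 and 12.45 in wt mice, a difference of 0.17 ± 0.07, and Ndufa12 differed by 0.10 ± 0.05. Ndufs3, of the same complex, differed by -0.16 ± 0.07, so the subunits did not share 1 direction. The list mean overlapped between genotypes, and its median lay between -0.01 and 0.05 as mice were left out. The 47 genes of mitochondrial carriers, import and lipids had a median of 0.01.

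The glial lists were small in their differences. The 22 myelin and oligodendrocyte genes had a median of -0.13, with 18 negative, but their list mean overlapped between genotypes at 10.30, 10.39 and 10.46 in Tg mice and 10.53, 10.41 and 10.60 in wt mice. Without Tg mouse 1 the median was -0.03, with 9 positive and 13 negative, without wt mouse 3 it was -0.04, and without wt mouse 2 it was -0.20. Sox10, the transcription factor that maintains the oligodendrocyte lineage, read 9.62, 9.48 and 9.84 in Tg mice and 10.20, 10.01 and 10.07 in wt mice, a difference of -0.44 ± 0.18, and dimmer probe sets gave -0.21 ± 0.14 and -0.06 ± 0.26. The related factor Sox9, of astrocytes, differed by -0.33 ± 0.17, also without overlap. The astrocyte and microglial medians were -0.02 and -0.04. Of 19 microglial genes, 14 had a negative difference, 0 lay wholly above wt and 3 wholly below (15.8%, against 5.91% of all genes). The microglial list mean overlapped between genotypes. Of 18 astrocyte genes, 2 lay wholly above and 1 wholly below.

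Dentate granule cell markers lay lower in Tg mice in 11 of 15 cases, with 4 wholly below wt and 0 above, against 5.91% and 4.43% of all genes, and a median of -0.10. Stxbp6, a syntaxin-binding protein, read 11.91, 11.91 and 11.92 in Tg mice and 12.18, 11.97 and 12.11 in wt mice, a difference of -0.17 ± 0.10. The defining dentate factor Prox1 was not among the 4, nor was Calb1. The list mean was 9.57, 9.56 and 9.62 in Tg mice and 9.76, 9.58 and 9.66 in wt mice, so it overlapped, and the median was -0.06 without wt mouse 1, the highest of the 6. The medians of the CA1 and of the CA2 and CA3 markers were 0.03 and 0.02.

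Vascular, matrix and immune lists had negative medians that turned on Tg mouse 3. The median was -0.13 for 29 interferon-response and MHC class I genes, -0.09 for 67 extracellular matrix genes and -0.11 for 20 endothelial and pericyte genes, and without Tg mouse 3 these medians were 0.01, 0.00 and 0.02. H2-D1, an MHC class I heavy chain whose probe set can also read its close relatives, was 10.83, 10.94 and 10.42 in Tg mice and 11.15, 11.17 and 10.96 in wt mice, a difference of -0.37 ± 0.16 with all mice and -0.21 ± 0.16 without Tg mouse 3. Irf1, a transcription factor of the interferon response, read 8.56, 8.57 and 8.56 in Tg mice and 8.79, 8.81 and 8.85 in wt mice, a gap to which Tg mouse 3 did not add. Against the trend of its list, the endothelial and astrocytic glucose transporter Slc2a1 read 11.61, 11.80 and 11.50 in Tg mice and 11.32, 11.46 and 11.41 in wt mice, and all 3 of its probe sets had differences of 0.22 to 0.25 without overlap.

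**Figure D5:**
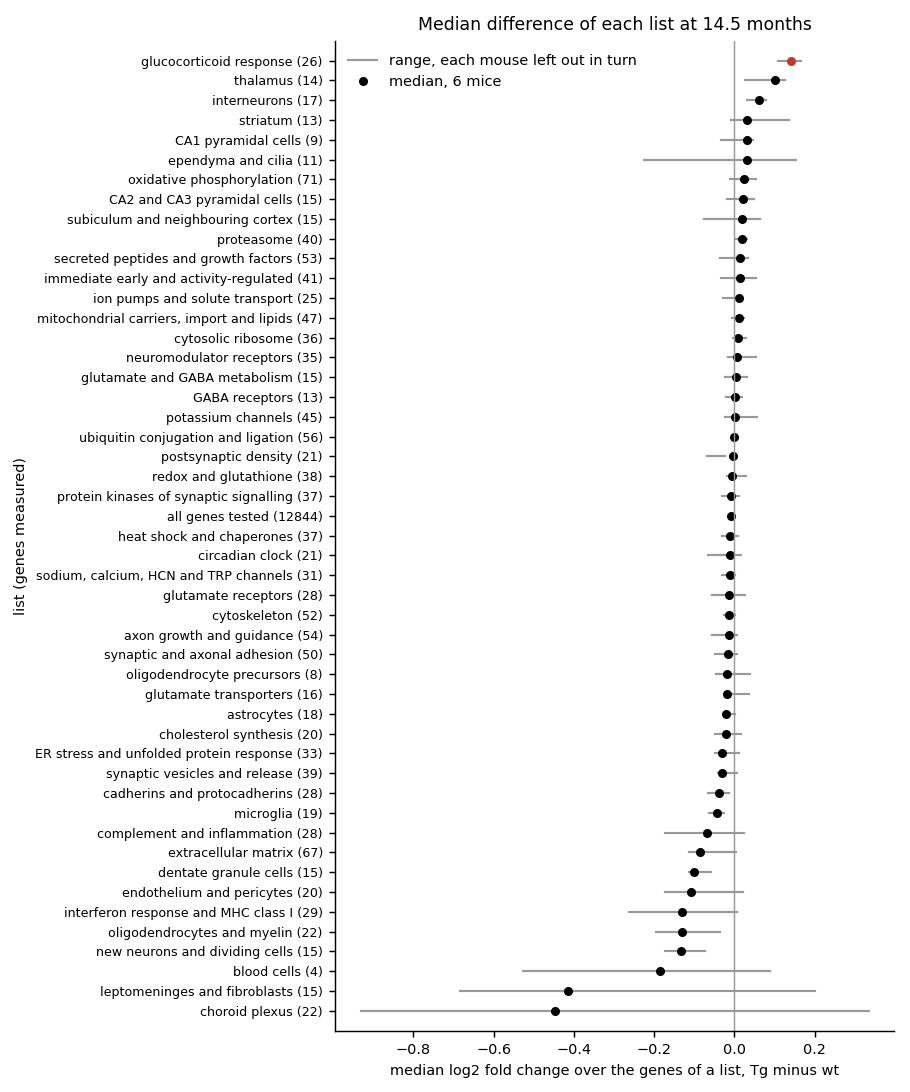
Median log2 fold change of Tg minus wt (horizontal axis) over the measured genes of each list and over all genes tested (numbers of genes in parentheses; the study's own list and 2 check lists are left out), with a line from the lowest to the highest median when each mouse was left out in turn. The glucocorticoid list (red) has the highest median at 0.14 and a short line, while the choroid plexus and leptomeningeal lists span 0.

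Genes that the study named as differing between genotypes, over all ages or at some ages, were no exception. The list included Fos and Zeb2, which the study named for younger ages. It was chosen in part with these samples, so it is no independent evidence. Of 73 measured, 0 were called and the median was 0.00. Wholly above wt lay 4 and wholly below lay 2 (5.48% and 2.74%, against 4.43% and 5.91% of all genes). The immediate early genes, which neurons switch on with activity, had a median of 0.01 over 41 genes, with Fos at 9.14, 8.66 and 8.76 in Tg mice and 8.69, 9.85 and 9.19 in wt mice, a spread within wt mice far wider than the difference of -0.39. Circadian clock genes had a median of -0.01. Of the 21 measured only Per2 separated the genotypes (4.76% wholly above wt, against 4.43% of all genes). It read 9.44, 9.20 and 9.45 in Tg mice and 8.94, 9.12 and 9.14 in wt mice.

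Set beside the neighbouring ages, the 14.5-month comparison had few calls and the smallest differences. In the same fit 10 probe sets (0.0372%) were called between Tg and wt mice at 10 days, 0 at 4.5 months, 934 (3.48%) at 9 months and 7 (0.026%) at 20 months. The mice of each age were different animals. For the 436 probe sets called with higher Tg values at 9 months, the median log2 fold change was 0.66 there and 0.01 at 14.5 months, and for the 498 called with lower Tg values it was -0.69 there and -0.00 at 14.5 months. The standard deviation of the differences over bright probe sets was 0.16 at 10 days, 0.15 at 4.5 months, 0.20 at 9 months, 0.10 at 14.5 months and 0.12 at 20 months. The spread between mice within genotypes put the ages in the same order. Its median over the brighter 50% of probe sets was 0.129, 0.123, 0.149, 0.085 and 0.107 at those ages. How far the size of the differences followed from that spread was not tested.

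A direct test set the genotype difference at 14.5 months against the mean of those at 4.5, 9 and 20 months. It called 0 of 26877 probe sets with limma, with 652 at an unadjusted p under 0.05, where evenly spread p-values would give 1344. Among the genes with the smallest p in that test, Htra1, a secreted serine protease, had a difference of 0.19 at 14.5 months, against 0.02, -0.17 and -0.29 at 4.5, 9 and 20 months. Cdk5r1, the activator of neuronal Cdk5, had 0.11 at 14.5 months, against -0.30, -0.34 and 0.03. Tfrc, the transferrin receptor through which cells take up iron, had -0.23 at 14.5 months, with -0.02, 0.12 and 0.12 at the other ages. Against 9 months alone the same fit called 4 probe sets (0.0149%), and against 20 months alone 2 (0.00744%), all 6 through a difference at the other age and not at 14.5 months.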

How the data were processed

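Hippocampal RNA of 1 mouse per array was hybridised to Affymetrix Mouse Genome arrays. The deposited table holds linear MAS5 signal intensity of 45101 probe sets on 31 arrays, scaled by the authors to a 2% trimmed mean of 500 per array; the submitters' processing notes name the tool without a version. Here log2 was taken, the 31 arrays were quantile-normalised, and 64 control probe sets and those above their array's median on fewer than 3 arrays were left out.

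The 26877 remaining probe sets were fitted in limma 3.58.1 (R 4.3.3) with 1 mean per genotype and age (10 groups), moderated with trend and robust settings, and adjusted by Benjamini-Hochberg; calls were made at an adjusted p of 0.05. Errors are SE of that fit. Its p-values and errors rest on the spread between mice within groups, pooled over all 10 groups, and not on the mice of 1 age alone. The median spread was smallest at the age compared here, so these errors can overstate the spread of its mice. Litters and batches are not given in the sources used here. Of 45037 mouse probe sets, 34945 were listed for 1 gene, 932 for several and 9160 for none in the platform annotation, with 34741 names updated through RefSeq. A gene was shown by its probe set of highest mean.

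Named genes were the 10 in each direction with the smallest p among genes above the array median whose groups did not overlap, the 2 to 4 of smallest p per list, Glud1, and the 5 of smallest p in each direction for the difference from other ages; other genes named were chosen after their values were seen. Members and lists were chosen with earlier results of these data known. The scripts were tested on simulated data. Alternatives covered normalisation, an added offset, filters, moderation, array weights, a replicate block and leaving out each mouse; a fit of the arrays at 14.5 and 20 months and overlap counts with a mouse left out were added after seeing the data.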

Additional observations from a re-analysis of the deposited data

Results flagged for a closer look

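Results were singled out where the genotype difference at 14.5 months differed from that at another age by a direct test in the limma fit. Against 9 months, the difference of Sox3, a transcription factor of neural progenitors on the X chromosome, was 4.05 larger on the log2 scale (adjusted p = 8.6e-07), being 0.15 at 14.5 months and -3.91 at 9 months. Kcns3, a potassium channel modifier subunit, was 2.61 larger, with -0.23 at 14.5 months and -2.84 at 9 months, and a probe set listed for no gene was 3.15 larger, with -0.27 and -3.42. For Eif4a1, an RNA helicase of translation initiation, the contrast was -0.72, with 0.02 at 14.5 months and 0.74 at 9 months. All but Eif4a1 were dim at 14.5 months. The Tg and wt means were 7.32 and 7.17 for Sox3, 7.61 and 7.84 for Kcns3 and 6.29 and 6.56 for the unnamed probe set. The array median was 6.84. Calls with a larger difference than at 9 months numbered 3, but 1 with 50 added before log2 and 0 above the 60th percentile of the mean.

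Against 20 months, the contrast of Dbp, a clock output transcription factor, was -1.03, with 0.02 at 14.5 months and 1.05 at 20 months. Dbp read 11.04, 10.97 and 10.90 in Tg mice and 10.75, 11.08 and 11.03 in wt mice at 14.5 months. The contrast of Pnmt, the enzyme that makes adrenaline, was 2.77, with 0.23 at 14.5 months and -2.54 at 20 months. Pnmt was also dim at 14.5 months, with means of 7.52 in Tg and 7.29 in wt mice. In these 6 the genotypes were level at 14.5 months and apart at the other age, and the cause was not tested.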

How the results depend on the processing

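The count of probe sets called between Tg and wt mice at 14.5 months stayed at 0 in 10 of 11 alternatives that kept all mice, and was 3 with array weights; leaving out 1 mouse at a time gave 0 to 1, the 1 being a dim probe set listed for no gene, without Tg mouse 1. Probe sets at an unadjusted p under 0.05 numbered 263, and 1098 with the 6 arrays normalised and fitted alone, 1255 with the 6 arrays fitted alone, 731 with no filter, 1925 with array weights and 780 in a fit of the arrays at 14.5 and 20 months, which was chosen after seeing the data. Leaving out mice gave 210 to 331. By construction, fits of the 6 arrays alone take their spread from the 14.5-month mice only.

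The difference from the mean of the other adult ages had 0 calls, and 1 with array weights. The difference from 9 months had 4 calls, with 2 when 50 was added before log2, 1 above the 60th percentile of the mean, 7 with array weights and 2 to 4 as mice were left out. The difference from 20 months had 2 calls, with 1 when 50 was added, 1 above the 60th percentile, 0 without trend and robust moderation, 9 with array weights and 0 to 2 as mice were left out. With the replicate number as a replicate block the counts were 0 at 14.5 months, 7 against 9 months and 0 against 20 months. Same-numbered mice at 14.5 months did not deviate together (r = 0.02, -0.09 and -0.03 for numbers 1 to 3). So few values at 1 age cannot show whether a number stands for a shared litter or batch. The causes of these shifts were not tested.

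In 3700 alternative values of single named genes, 0 passed the threshold, and in 408 alternative list medians 32 moved beyond the spread between mice. Intervals were wider for dim probe sets, and differences inside the quoted intervals were not resolved with 3 mice a group.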

Other observations

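A few further members of the gene lists had groups without overlap at 14.5 months and no call. Etnppl, an astrocytic phospholyase, read 9.59, 9.76 and 9.85 in Tg mice and 9.24, 9.43 and 9.42 in wt mice, a difference of 0.38 ± 0.28. Rpl37, a protein of the large ribosomal subunit, read 11.03, 10.99 and 10.95 in Tg mice and 10.77, 10.79 and 10.54 in wt mice, although the median of the 36 ribosomal protein genes was 0.01. Prkar2a, a regulatory subunit of protein kinase A, read 10.34, 10.28 and 10.30 in Tg mice and 10.11, 10.16 and 10.06 in wt mice, a difference of 0.20 ± 0.10.

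Other members had all 3 Tg values below all 3 wt values, although the lists of synaptic and axonal adhesion and of extracellular matrix had 3 of 50 and 4 of 67 such genes, against 5.91% of all genes. Cntn1, an axonal contactin, read 13.51, 13.56 and 13.53 in Tg mice and 13.62, 13.63 and 13.69 in wt mice, and Pcdh19, a protocadherin of the X chromosome, read 11.27, 11.15 and 11.22 in Tg mice and 11.52, 11.31 and 11.37 in wt mice, a difference of -0.19 ± 0.09. The mean over 28 cadherins and protocadherins was 9.59, 9.60 and 9.62 in Tg mice and 9.64, 9.64 and 9.66 in wt mice, so the genotypes did not overlap, by a margin that is small beside the error of any 1 gene. Lama2, a laminin of the vascular basement membrane, read 8.18, 8.43 and 8.17 in Tg mice and 8.54, 8.52 and 8.76 in wt mice, a difference of -0.35 with all mice and -0.31 ± 0.21 without Tg mouse 3.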
